A study of Bombyx mori with 4 samples.

Results

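These are the 1075 stretches of the silkworm genome in which a peak of accessible chromatin was listed in all 4 libraries of the study, brain 1, brain 2, fat body 1 and fat body 2. They were found by merging the peaks of the 4 deposited lists wherever they overlapped by at least 1 bp, which gave 130309 merged regions, and by keeping those that a peak of every list overlapped. The kept regions made up 0.825% of all merged regions. They were chosen by presence in the lists, so their number, their place in each list and the nearness of their peaks follow in part from that choice and are described without a test. They are called 4-list regions here.

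The study used wild-type larvae of Bombyx mori, strain P50, at the stage titled L5D3, with 2 ATAC-seq libraries of the brain and 2 of the fat body; no treatment or control group was part of it. The labels do not tell if paired libraries stem from different animals, and their spread may be technical. The peak names hold the stage code 5L-4D in brain 1, 5l3d in brain 2 as well as fat body 1, and L5D3 in fat body 2. If the code of brain 1 marks another day, every 4-list region was open on more than 1 day, and the leading counts are therefore also given without brain 1, as regions present in the 3 other lists. The brain lists held 36420 (brain 1) and 11572 peaks (brain 2), and the fat body lists 107057 (fat body 1) and 14752 peaks (fat body 2). The read depth of the libraries is unknown, and with 4 libraries in 2 tissues the smallest exact p for a tissue difference is 0.333, so none is given.

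In ATAC-seq a transposase cuts DNA where nucleosomes leave it exposed, and the cut fragments pile up at promoters, enhancers and other regulatory DNA. Regions that are open in unlike tissues are known from other animals to hold many promoters of genes that every cell uses, together with insulator sites, whereas enhancers tend to be open in fewer cell types. The brain and the fat body are unlike in this sense: the brain is made of neurons and glia, and the fat body stores fat and glycogen and secretes haemolymph proteins, much as a liver would. Gene models of the build of the peak lists were not used here, so whether the 4-list regions lie at promoters was not analysed, and each region is given by its coordinates. Coordinates are 1-based on the sequence names of the lists, which start with BHWX01. Sequences numbered 1 to 28 end between 8.36 and 21.5 Mb and are the long sequences here; the others are unplaced. Both tissues are mixtures of cells, and few cells with an open site cannot be told apart from many cells with a site that is seldom open.

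Each library held back a different share of candidate regions. Of the 3655 regions present in the 3 other lists, 29.4% were also present in fat body 2 (exact binomial 95% interval 27.9 to 30.9). The same share was 37.8% of 2841 regions for brain 1 (36.1 to 39.7), 59.5% of 1807 for brain 2 (57.2 to 61.8) and 85.5% of 1258 for fat body 1 (83.4 to 87.4). Fat body 2 and brain 1 thus removed the most candidates, and fat body 1, the longest list, the fewest. The lists also differ in cut-off. The lowest −log10 q was 5.04 in fat body 2, 3.69 in fat body 1, 3.65 in brain 1 and 3.18 in brain 2. Whether the cut-off shaped these shares was not tested. Merged anew from 3 lists, the count was 2796 without brain 1, 1792 without brain 2, 1232 without fat body 1 and 3638 without fat body 2. The intervals cover counting over regions only, and regions are not replicates.

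The 4-list regions were wide. Their median width was 902 bp, with quartiles at 699.5 and 1170 bp and extremes of 317 and 2787 bp, against a median of 233 bp over all merged regions and 763 bp over regions present in exactly 3 lists. Together they spanned 1.05 Mb, or 2.37% of the bases in merged regions. There were 96 of them with at least 1500 bp, which is 8.93% of the 4-list regions, against 0.530% of all merged regions. A merged region grows with every list that joins it, so part of this width comes from the rule.

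Of the 4 lists, brain 1 covered the largest part of the width. Its peaks covered a median of 98.0% of a 4-list region, against 58.2% for brain 2, 49.6% for fat body 1 and 43.5% for fat body 2. Brain 1 reached both edges in 467 regions, or 43.4%, and at least 1 edge in 83.5%. Brain 2 reached an edge in 14.9%, fat body 1 in 36.1% and fat body 2 in 21.4% of the regions. The strongest peak of brain 1 in a 4-list region had a median width of 744 bp, against 425 bp over its whole list, and that of fat body 1 had 376 bp against 166 bp. The peaks of brain 2 kept the width of their list, at 499 bp against 491 bp. Those of fat body 2 were narrower than their list, at 343 bp against 637 bp.

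In most 4-list regions some bases were covered in every library. Such a common core existed in 930 of the 1075 regions, or 86.5%. Over all 1075 regions, those with no core included, the core had a median of 236 bp, with quartiles at 134.5 and 304 bp, or 26.3% of the region's width. The cores added up to 0.242 Mb. In the other 145 regions the 4 lists were joined through intermediate peaks, and no base lay in all of them. A core under 50 bp was found in 39 of the regions that had one. Without brain 1, bases common to the 3 other lists existed in 2607 of 2796 regions, or 93.2%.

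A single peak per library was the usual make-up. In 796 regions, or 74.0%, each list had exactly 1 peak, and these regions had a median width of 821.5 bp. The other 279 regions had a median width of 1176 bp. Of these, 235 held more than 1 peak of fat body 1 and exactly 1 of each other list. Fat body 1 had 2 peaks in 243 regions, 3 in 24 and 4 in 4, whereas brain 1 had more than 1 peak in 12, brain 2 in 25 and fat body 2 in 11. Where fat body 1 had several peaks in a region, neighbouring peaks were separated by a median of 276 bp (quartiles 165.5 and 426.5 bp), and their summits by a median of 552 bp (quartiles 443.5 and 731 bp). Without fat body 1 the count with 1 peak of each list was 1192. It was 2434 without brain 1, 1400 without brain 2 and 2747 without fat body 2.

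In the libraries numbered 1 the 4-list regions sat at the very top of the list, and in the libraries numbered 2 they were spread over it. A peak's percentile is its place in its own list by −log10 q, with 100 for the strongest. In brain 1 the strongest peak of a 4-list region had quartiles at 73.2 and 98.8 around a median of 95.5. Those of fat body 1 were 88.0 and 99.3 around a median of 97.8. In brain 2 they were 45.8 and 87.2 around 69.6, and in fat body 2 they were 41.8 and 84.0 around 67.1. The strongest 10% of the list held 682 of the 4-list regions in brain 1 and 199 in brain 2, and 782 in fat body 1 and 149 in fat body 2. Fat body 1 ranked lower without brain 1: over the 2796 regions found without brain 1, its median percentile was 61.6, while it was 62.5 in brain 2 and 63.8 in fat body 2. The strongest 10% of the list then held 835 of these regions in fat body 1, or 29.9%, against 396 in brain 2 and 402 in fat body 2. Because list length and cut-off vary, a percentile of one list is not equal to the same percentile of another. The lowest −log10 p was 6.69 in fat body 2 and between 5.01 and 5.03 in the other lists.

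**Figure D1:**
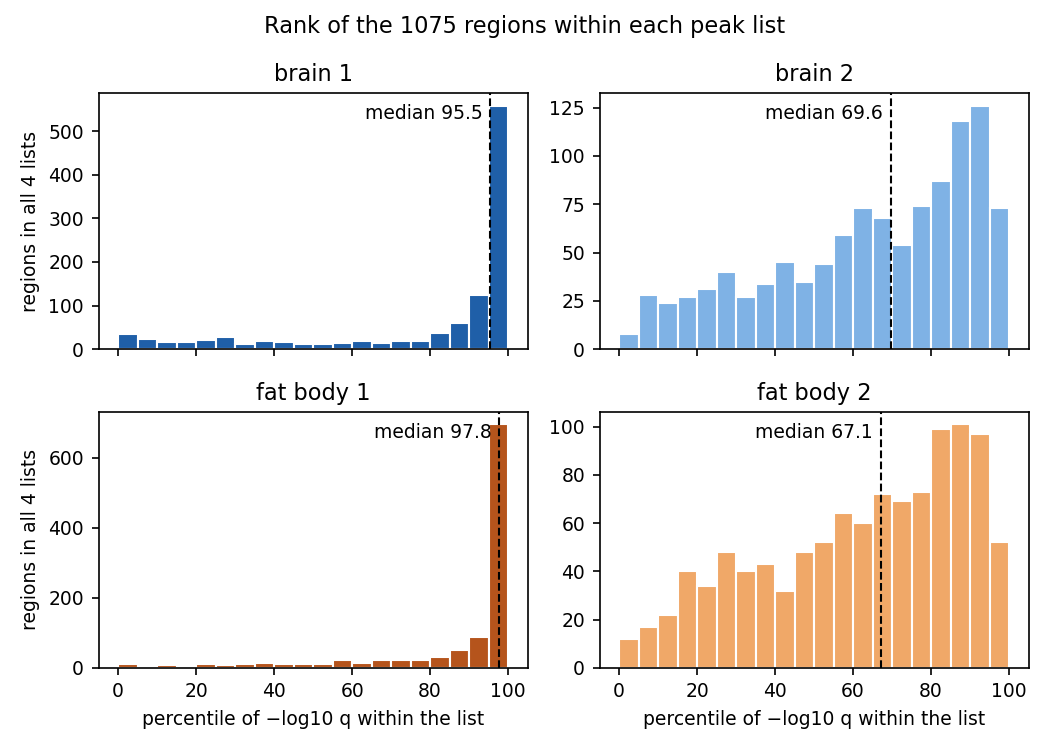
Number of 4-list regions (y axis, a different scale in each panel) by the percentile of their strongest peak within the list (x axis, −log10 q, in steps of 5), 1 panel per library, with the median dashed. The regions crowd against the right edge in brain 1 and fat body 1, with medians of 95.5 and 97.8, and spread over the axis in brain 2 and fat body 2, with medians of 69.6 and 67.1.

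At the very top of the lists the libraries parted by number. Over whole lists, 2.98% of peaks lay in 4-list regions in brain 1 and 9.51% in brain 2, and 1.29% in fat body 1 and 7.36% in fat body 2. Among the strongest 1% of peaks in brain 1, 241 of 365, or 66.0%, lay in 4-list regions. In fat body 1 this was 359 of 1071, or 33.5%. In brain 2 it was 3 of 116, or 2.59%, and in fat body 2 it was 2 of 148, or 1.35%. The strongest 1% thus lay in 4-list regions more often than the whole list in the libraries numbered 1, and less often in those numbered 2. The strongest 1% of brain 2 lay mostly in regions shared with fat body 2 alone, with 77 of 116 peaks, or in regions present in every list but brain 1, with 35. Likewise 65 of the 148 strongest peaks of fat body 2 were in regions shared with brain 2 alone, and 38 in regions missing only from brain 1.

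In wider steps of rank, neither library numbered 2 showed such a fall in its strongest peaks. The share over the whole list was 9.51% in brain 2 and 7.36% in fat body 2. Each list was cut by rank into 10 bins of equal size. In brain 1 the share of peaks inside 4-list regions stayed between 0.769% and 2.66% over the 9 weaker bins and reached 18.7% (95% interval 17.5 to 20.0) in the strongest. In fat body 1 it lay between 0.327% and 1.06% over the 9 weaker bins and reached 8.20% (7.69 to 8.74). In brain 2 it was 3.54% in the weakest bin, 17.8% (15.6 to 20.1) in the ninth and 17.2% (15.1 to 19.5) in the strongest. In fat body 2 it was 1.97% in the weakest bin, 13.6% (11.9 to 15.5) in the ninth and 10.1% (8.60 to 11.7) in the strongest. The intervals cover counting over the peaks of 1 library only. Peaks are not replicates, and several can lie in the same region.

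**Figure D2:**
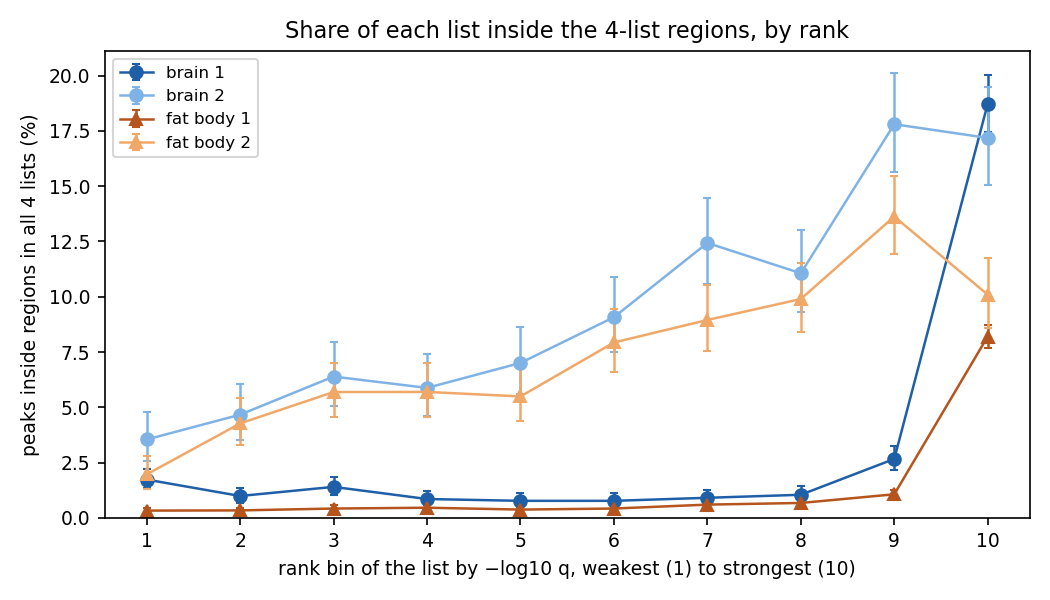
Share of a list's peaks that lie inside 4-list regions (y axis, percent) by rank bin from weakest to strongest (x axis, 10 bins of −log10 q), 1 line per library, with exact binomial 95% intervals as whiskers. Brain 1 and fat body 1 turn up sharply in the strongest bin, to 18.7% and 8.20%. Fat body 2 falls back to 10.1% there, against 13.6% in the ninth. The whiskers cover counting over the peaks of 1 library only, and peaks are not replicates.

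A region that ranked high in one library did not have to rank high in another. The most frequent pattern, in 430 regions or 40.0%, was a place in the strongest 10% of brain 1 and fat body 1 only. All 4 lists had the region in their strongest 10% in 35 cases, or 3.26%, and none did in 230 cases, or 21.4%. Within a region the highest and lowest of the 4 percentiles differed by a median of 47.9 points, and by more than 80 points in 111 regions. Fat body 2 gave the lowest percentile in 479 regions and brain 2 in 387, while fat body 1 gave the highest in 625. In 474 regions, or 44.1%, every percentile was above 50. In 13 regions none was.

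Across the 1075 regions, percentiles went together most closely between brain 1 and fat body 1, with a Spearman rank correlation of 0.75. This correlation was 0.49 between the fat body libraries and 0.48 between the brain libraries. Brain 2 had 0.34 with fat body 2 but 0.21 with fat body 1, and brain 1 had 0.25 with fat body 2. These values describe regions of the same 4 libraries, which share their merged regions, and carry no p. The pair with the highest correlation was thus from different tissues and, of tissue and number, shared only the number. With fold in place of percentile the correlation was 0.64 between brain 1 and fat body 1, 0.35 between brain 2 and fat body 2, 0.34 between the fat body libraries and 0.18 between the brain libraries. It was 0.04 between brain 1 and fat body 2 and 0.01 between brain 2 and fat body 1. By fold, both pairs of the same number stood above both pairs of the same tissue, although 0.35 and 0.34 are close.

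Fold enrichment is the authors' own value for each peak, the height of the summit over its local background. In brain 1 the strongest peak of a 4-list region had a median fold of 11.0, with quartiles at 7.22 and 13.7, against 5.62 over the whole list. In brain 2 the median was 5.73 (4.73 to 7.29), against 5.40 over the list. In fat body 1 it was 13.2 (7.10 to 18.8), against 4.01 over the list. In fat body 2 it was 9.95 (7.50 to 13.4), against 8.59 over the list. The 4-list regions thus stood furthest above the list median in the libraries numbered 1.

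Fold and p of a summit fix its read pile-up, the number of reads stacked there, and its local background in reads. Exactly 1 whole pile-up met both values for 100.0% of the strongest peaks in every list, within a relative tolerance of 2e-05. The median pile-up in 4-list regions was 277 reads in brain 1, with quartiles at 103 and 413, against 59 over all peaks of the list. In brain 2 it was 39 reads (27 and 56), against 27. In fat body 1 it was 177 reads (54 and 305.5), against 35. In fat body 2 it was 57 reads (38 and 92), against 42. The median summit in these regions thus rested on fewer reads in the libraries numbered 2, and depth is unknown. Whether this affects summit positions and ranks there was not tested.

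In every library the 4-list regions also had a higher median local background than the whole list. The local background at their summits had a median of 21.0 reads in brain 1, against 9.76 over the list, or 2.16 times as much. In brain 2 it was 6.10 against 4.08 reads, or 1.49 times as much. In fat body 1 it was 12.1 against 8.39 reads (1.44 times), and in fat body 2 it was 4.97 against 4.18 reads (1.19 times). The lowest background over the whole list was 1.38 reads in brain 1 and 0.558 in brain 2, and 1.38 in fat body 1 and 0.534 in fat body 2. It was thus higher in both libraries numbered 1, and patterns that follow the number cannot be told apart from it. Whether it follows read depth was not tested. No input library was among the 4, so reads of the regions themselves can be part of the local background. The local background is therefore not a measure of the surroundings alone, and how far those reads raise it was not tested.

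The strongest summits of the 4 libraries often fell close together. The outermost of the 4 lay a median of 150 bp apart, with quartiles at 78.5 and 392.5 bp and a highest value of 1826 bp. They lay within 50 bp in 118 regions, or 11.0%, within 100 bp in 374 regions, or 34.8%, and more than 500 bp apart in 208, or 19.3%. In 6 regions all 4 summits were at the same base. Without brain 1 the 3 other summits lay within 100 bp in 737 of 2796 regions, or 26.4%, with a median of 194.5 bp between the outermost. The distance grew with the width of the region: its median was 105 bp in the 269 regions under 700 bp, 153 bp in the 561 from 700 bp to under 1200 bp, and 507 bp in the 245 regions of 1200 bp or more. All 4 summits lie inside the region, so part of this growth comes from the merging rule. Regions with 1 peak of each list had a median of 127 bp, and those with more peaks 312 bp.

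Which libraries had their summits together followed neither tissue nor number alone. The median distance was 42 bp for brain 1 with fat body 1 and 45 bp for the fat body pair. It was 61 bp for brain 1 with fat body 2, 75 bp for brain 2 with fat body 2, 82 bp for the brain pair and 104 bp for brain 2 with fat body 1. The mean of these medians was 63.5 ± 26.2 bp over same-tissue pairs (SD, n = 2 pairs) and 70.5 ± 26.1 bp over different-tissue pairs (SD, n = 4 pairs). The difference of -7.00 bp was smaller than either SD, and the pairs share libraries. It was -23.5 bp without brain 1, -10.5 bp without brain 2, 17.8 bp without fat body 1 and 4.25 bp without fat body 2. With the number as a replicate block it was -19.0 bp. Pairs of the same number averaged 58.5 ± 23.3 bp (SD, n = 2 pairs).

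Brain 1 and fat body 1 had their summit at the identical base in 142 regions, or 13.2%. The fat body pair did so in 72, brain 1 with fat body 2 in 63 and the brain pair in 45. Brain 2 shared the base with fat body 2 in 42 regions and with fat body 1 in 34. Large distances were rarest for brain 2 with fat body 2, where 9.95% of regions had summits more than 300 bp apart, against 12.8% for brain 1 with fat body 1, 18.0% for the brain pair and 16.7% for the fat body pair. Pairs that differ in both tissue and number showed 20.5% (brain 1, fat body 2) and 18.0% (brain 2, fat body 1).

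**Figure D3:**
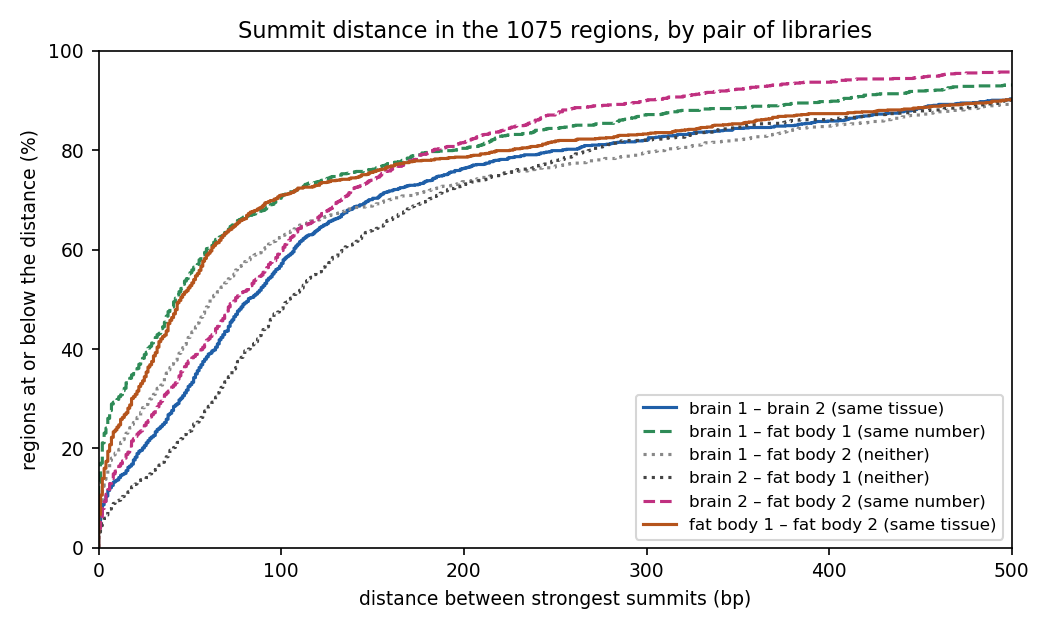
Share of the 1075 regions (y axis, percent) whose strongest summits in a pair of libraries lay at or below a distance (x axis, bp, shown to 500), with solid lines for pairs of the same tissue, dashed for the same number and dotted for neither. Brain 1 with fat body 1 and the fat body pair lead at short distances, with medians of 42 and 45 bp, and brain 2 with fat body 1 trails, with 104 bp.

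Joining summits that were at most 100 bp from the next one sorted the regions into layouts. All 4 summits formed 1 group in 532 regions, or 49.5%; without brain 1 the 3 summits did so in 999 of 2796 regions, or 35.7%. A single summit stood off in 235 regions, and this was the summit of brain 2 in 130 of them, of brain 1 in 39, of fat body 2 in 35 and of fat body 1 in 31. The summits split 2 and 2 in 109 regions. These pairs followed the number in 60, the tissue in 45 and neither in 4. In 163 regions 1 pair and 2 single summits were left, and in 36 no summit was near another. Regions with 1 group had a median width of 810 bp, and those with no group 1235.5 bp.

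Better-ranked regions had tighter summits. In the 25% of regions with the highest mean percentile, the outermost summits lay a median of 99 bp apart, against 430 bp in the lowest 25%. Across regions, the Spearman rank correlation between mean percentile and this distance was -0.47. It was 0.39 between width and the distance, and -0.0034 between width and mean percentile. The mean percentile and the distance use the same peaks, and the width sets an upper limit to the distance.

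**Figure D4:**
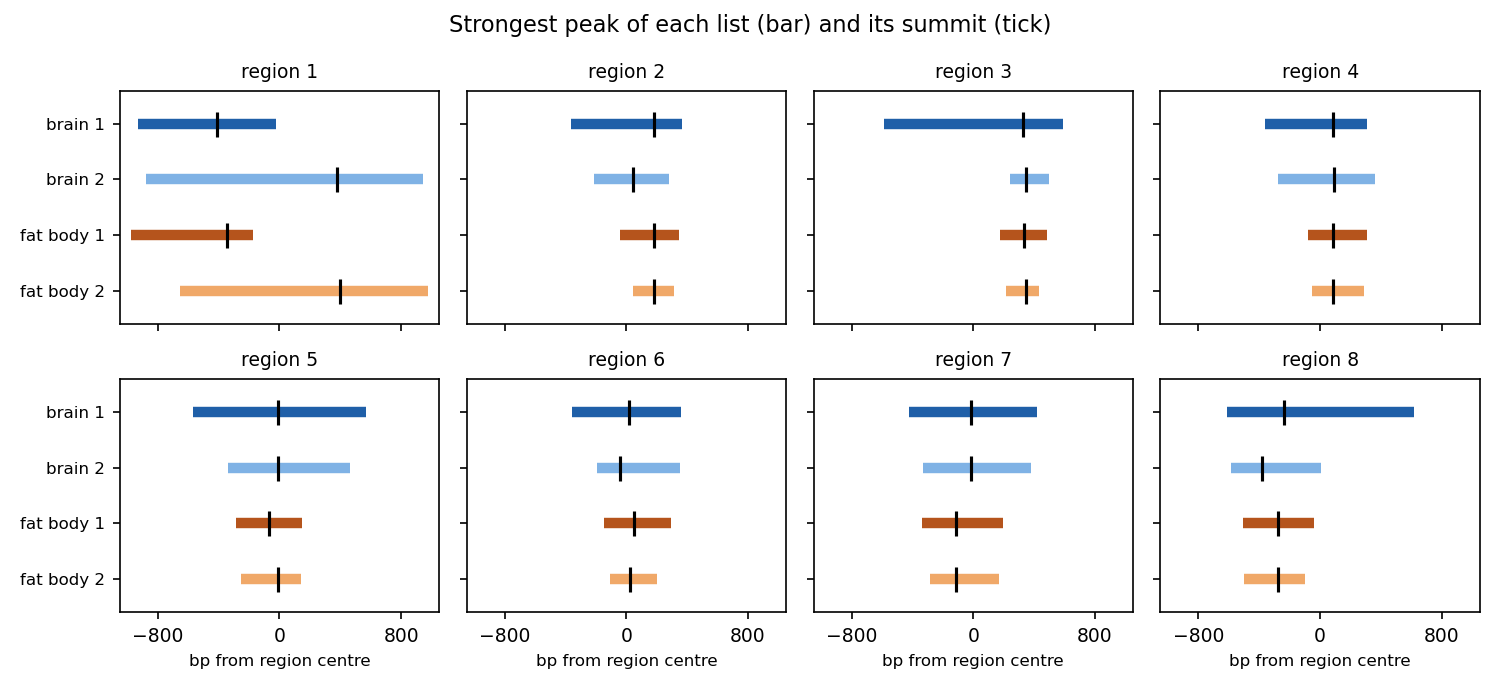
Extent of the strongest peak of each list (bars) and its summit (black ticks) in the 8 regions of best mean percentile, as distance from the region's centre (x axis, bp), 1 row per library. In region 1 the summits of brain 1 and fat body 1 lie to the left and those of brain 2 and fat body 2 to the right, 810 bp between the outermost, whereas in region 4 all summits fall within 4 bp.

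The 8 regions with the best mean percentile over the 4 lists are given in order, each with its fold enrichment in every library and some with pile-ups. Folds and pile-ups belong to 1 library each and are not compared between libraries for these 8 regions. Region 1 lay on BHWX01000014.1 from 4979244 to 4981197, and its percentiles ran from 98.9 in brain 2 to 99.96 in fat body 1. Its fold was 10.7 in brain 1 and 9.83 in brain 2, and 22.9 in fat body 1 and 21.6 in fat body 2. Its pile-up was 607 reads in brain 1 and 168 in brain 2, and 653 in fat body 1 and 645 in fat body 2. It held 2 summits rather than 1: brain 1 peaked at 4979809 and fat body 1 at 4979875, while brain 2 peaked at 4980601 and fat body 2 at 4980619. The base of the summit thus separated the numbers and not the tissues, and the core common to all 4 peaks was 483 bp long.

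Region 2 lay on BHWX01000011.1 from 14707994 to 14708727 (734 bp). Its fold was 13.8 in brain 1 and 10.4 in brain 2, and 22.5 in fat body 1 and 23.7 in fat body 2. Brain 1, fat body 1 and fat body 2 all peaked at 14708540, and brain 2 peaked 134 bp away at 14708406. Region 3 lay on BHWX01000010.1 from 9088712 to 9089887 (1176 bp). Its fold was 19.0 in brain 1 and 12.8 in brain 2, and 27.0 in fat body 1 and 25.3 in fat body 2. Its 4 summits lay within 20 bp, although the peak of brain 1 spanned the whole region and the strongest peaks of the others lay in its right part.

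Region 4 lay on BHWX01000009.1 from 9689590 to 9690318 (729 bp). Its fold was 11.0 in brain 1 and 7.66 in brain 2, and 18.6 in fat body 1 and 17.1 in fat body 2. Its pile-up was 717 reads in brain 1 but 98 in brain 2, and 541 in fat body 1 but 221 in fat body 2. The summits of brain 1, fat body 1 and fat body 2 were at 9690041 and that of brain 2 at 9690045. Of the 8, this region had its summits closest together. Region 5 lay on BHWX01000002.1 from 987221 to 988361 (1141 bp), with a fold of 12.2 in brain 1 and 6.76 in brain 2, and 27.6 in fat body 1 and 19.4 in fat body 2. Both brain libraries peaked at 987782, fat body 2 peaked 3 bp away at 987779 and fat body 1 at 987723.

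Region 6 lay on BHWX01000014.1 from 5641894 to 5642613 (720 bp), with a fold of 15.1 in brain 1 and 8.40 in brain 2, and 27.3 in fat body 1 and 19.8 in fat body 2. Its summits lay within 94 bp. Region 7 lay on BHWX01000010.1 from 7858198 to 7859040 (843 bp), with a fold of 10.9 in brain 1 and 6.42 in brain 2, and 26.3 in fat body 1 and 17.4 in fat body 2. It held the strongest peak of the whole fat body 1 list, with a pile-up of 1014 reads. No summit was over 100 bp from the next, so all 4 formed 1 group, and those of a tissue lay closest: brain 1 peaked at 7858604 and brain 2 at 7858607, while fat body 1 peaked at 7858506 and fat body 2 at 7858508. Region 8 lay on BHWX01000002.1 from 6426239 to 6427469 (1231 bp), with a fold of 11.2 in brain 1 and 7.20 in brain 2, and 31.7 in fat body 1 and 20.3 in fat body 2. Both fat body libraries peaked at 6426576 there.

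The widest 4-list region lay on BHWX01000002.1 from 980143 to 982929 (2787 bp), only 4291 bp from region 5. It held 4 peaks of fat body 1 and 1 of each other list. In spite of its width, the strongest summits of the 4 libraries lay within 78 bp. The next widest lay on BHWX01000009.1 from 11676888 to 11679545 (2658 bp), and its outermost summits were 765 bp apart: brain 1 and fat body 1 both peaked at 11678573, brain 2 at 11679338 and fat body 2 at 11679317. The following one lay on BHWX01000024.1 from 17202936 to 17205379 (2444 bp) and had its summits within 175 bp. The region with the most peaks, 8 in all, lay on BHWX01000027.1 from 829365 to 831733, where no base was common to all 4 lists and the outermost summits were 1016 bp apart.

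Of the 6 regions whose 4 summits fell on 1 base, the best ranked lay on BHWX01000013.1 from 13018503 to 13019697, with the summit at 13019098. Its fold was 9.34 in brain 1 and 5.20 in brain 2, and 16.8 in fat body 1 and 13.8 in fat body 2. Second came a region on BHWX01000014.1 from 12420616 to 12421465, with the summit at 12420899 and a fold of 15.9 in brain 1 and 5.16 in brain 2, and 24.1 in fat body 1 and 18.7 in fat body 2. After it came one on BHWX01000010.1 from 11599667 to 11600351, with the summit at 11599974 and a fold of 15.6 in brain 1 and 4.91 in brain 2, and 16.8 in fat body 1 and 8.27 in fat body 2. Those 3 regions were 1195, 850 and 685 bp wide. Of all 6, 3 were under 700 bp and none reached 1200 bp.

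At the threshold of 1 bp, few regions were decided by a small overlap. The weakest overlap that held a 4-list region together was under 50 bp in 36 regions and had a median of 260 bp. The region just inside lay on BHWX01000017.1 from 10912491 to 10914397 and hung on 3 bp, with percentiles of 94.8 in brain 1 and 17.9 in brain 2, and 98.3 in fat body 1 and 24.7 in fat body 2. Next came one on BHWX01000003.1 from 8242972 to 8244509 and hung on 4 bp, with percentiles of 74.7 in brain 1 and 44.0 in brain 2, and 90.9 in fat body 1 and 86.8 in fat body 2. Just outside was a region on BHWX01000008.1 from 2179844 to 2180311, which missed a peak of brain 1 by 5 bp, and one on BHWX01000014.1 from 10920411 to 10921001, which missed a peak of fat body 1 by 8 bp. Of the 5261 regions in exactly 3 lists, 5252 had a measured gap to a peak of the fourth list. That gap was within 100 bp in 32 of them and had a median of 8.18 kb.

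The long sequences held 1071 of the 4-list regions, and 4 lay on unplaced sequences. Pooled over the long sequences there were 2.41 per Mb of sequence up to its last listed peak. The median over these sequences was 2.44 per Mb, against 296 per Mb for all merged regions. Without brain 1 there were 6.25 per Mb, pooled, in the 3 other lists. Sequence 2 had the highest density, 3.35 per Mb from 28 regions (exact Poisson 95% interval 2.22 to 4.84), followed by sequence 16 with 3.21 from 46 (2.35 to 4.28) and sequence 10 with 3.18 from 56 (2.40 to 4.13). Sequence 1 had the lowest, 1.36 per Mb from 28 regions (0.902 to 1.96), then sequence 12 with 1.71 from 30 (1.15 to 2.44) and sequence 19 with 1.89 from 28 (1.26 to 2.74). The intervals cover counting error only, and those of neighbours in this order overlap. With equally long lists of best peaks the order changed: sequence 10 was highest, with 2.50 per Mb, sequence 26 was lowest, with 0.872, and sequence 1 had 1.02. Sequence 1 also had the fewest merged regions of any kind, 193 per Mb, so that its 4-list regions made up 0.701% of its merged regions, against 0.588% on sequence 12, 1.10% on sequence 2 and 1.10% on sequence 10.

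**Figure D5:**
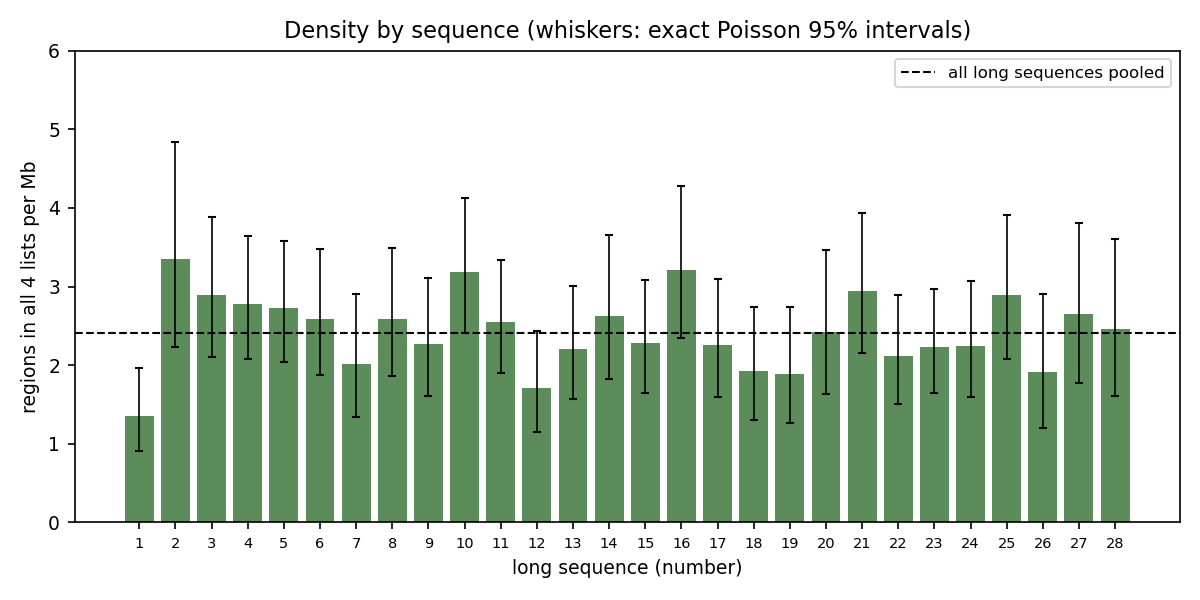
Number of 4-list regions per Mb (y axis) on each of the 28 long sequences (x axis, sequence number), with exact Poisson 95% intervals as whiskers and the pooled density of 2.41 per Mb dashed. Sequence 1 is lowest, with 1.36 per Mb, and sequences 2, 16 and 10 are highest, with 3.35, 3.21 and 3.18 per Mb.

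Neighbouring 4-list regions lay a median of 248 kb apart, with quartiles at 88.0 and 577 kb, and a median of 74 other merged regions lay between them. Without brain 1 the median gap was 103 kb. Gaps under 10 kb numbered 40 of 1044, and 74 regions had another 4-list region within 10 kb. In 19 cases 2 of them followed each other with no other merged region between. Gaps over 1 Mb numbered 95. The longest gap ran for 3.50 Mb on BHWX01000001.1 from 14338411 to 17835035 and contained 708 merged regions, 26 of them present in 3 lists. The next ran for 3.23 Mb on BHWX01000015.1 from 13884180 to 17115974 and contained 918 merged regions, 33 of them in 3 lists. These gaps were therefore not empty of peaks.

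Within any window of 100 kb, the most 4-list regions were 7, which spanned 94.9 kb on BHWX01000010.1 from 11562763 to 11657690, where 27 merged regions lay in all. One of them is the region at 11599974 with all 4 summits on 1 base. Over the 7 regions the outermost summits lay from 0 to 141 bp apart, the widths ran from 443 to 1319 bp, and the mean percentiles ran from 78.4 to 96.2. A denser group of 5 lay on BHWX01000025.1 from 6870609 to 6902094, within 31.5 kb that held 7 merged regions in all. Along the long sequences the 4-list regions were 0.688% of merged regions in the 5% of the sequence at each end, and the highest share in any such step was 1.01%.

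The regions most like these were those missing from 1 list only. The 4-list regions ranked at 97.8 in fat body 1, against a median percentile of 43.4 there for the 1766 regions in every list but brain 1. In brain 2 the 4-list regions had a median of 69.6 against 57.1 for the same set, and in fat body 2 they had 67.1 against 62.0. Median fold went the other way in both, with 5.73 against 6.22 in brain 2 and 9.95 against 10.3 in fat body 2. For the 2580 regions in every list but fat body 2, the 4-list regions ranked at 95.5 against 92.2 in brain 1, at 97.8 against 89.3 in fat body 1 and at 69.6 against 42.7 in brain 2. Median fold in brain 1 was 11.0 for the 4-list regions against 11.7 for this set. Against the 732 regions in every list but brain 2, the 4-list regions ranked at 97.8 against 98.0 in fat body 1 and at 95.5 against 63.9 in brain 1. The median width was 902 bp for 4-list regions, 743 bp for those without brain 1, 742 bp without brain 2, 923 bp without fat body 1 and 784 bp without fat body 2. Presence in the lists defined all of these sets, so the differences are given as values.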

How the data were processed

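ATAC-seq of 2 brain and 2 fat body libraries was used as 1 deposited peak list per library. The authors used MACS2 2.1.0 and deepTools 3.3.0 with Picard, Bowtie2 and Trim Galore, per the submitters' processing notes. Their settings and the genome build: not given in the sources used here. Per the file contents, peak names carry a threshold of 1e-05 (on q in fat body 2). The deposited lists give an integer score (not used), fold enrichment, −log10 p and −log10 q per peak. Reads are not in the lists, so depth is unknown, and whether the lowest background of a list follows it was not tested.

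Peaks overlapping by 1 bp were joined with Python 3.11.15, numpy 2.4.6, pandas 2.3.3 and scipy 1.17.1; joining was tested on simulated peaks. The strongest peak of a list in a region was that with the highest −log10 p. Pile-ups were recovered from fold, taken as (pile-up + 1) / (background + 1), and from the Poisson p; all 300 simulated pile-ups were recovered. Named regions were the 8 with the best mean percentile, the 3 widest, the 3 with the closest summits, those at the threshold, the one with the most peaks, the extreme sequences and the group with the most regions within 100 kb; the denser group of 5 and the long gaps were chosen after their values were seen. Regions and alternatives were chosen with earlier results of these data known. The rank bins of the lists, the strongest 1% and the layouts were added after the lists were seen. No test was made over regions.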

Additional observations from a re-analysis of the deposited data

How the results depend on the processing

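Of 48 recomputed values, 22 stayed close to the reported one, 24 moved and 2 changed sign. Close meant counts within 1.5 times. For medians it meant within the 95% interval of the reported median over regions (880 to 936 bp for the width) or sequences. For the summit difference it meant within 1 SD (26.2 bp) with the same sign. That SD is of 2 pairs and larger than the -7.00 bp itself, so -23.5 and -19.0 bp counted as close. When only peaks with −log10 q from 5 upwards were merged, 1032 regions were in all 4 lists. With as many best peaks from each list as the shortest has, the count was 705, against 1075. The median width was then 862 bp, against 902 bp, and the median density 1.56 per Mb, against 2.44 per Mb. Every list except brain 2, the shortest, is cut by construction. With an overlap of 50% the count was 969 and the width 866 bp, and with windows of 100 bp to each side of the summit they were 771 and 302 bp; for the overlap the cause was not tested, and the windows fix the width by construction. Using every fat body 1 peak in a region put its median percentile at 96.2, against 97.8. Leaving out 1 library moved the count between 1232 (without fat body 1) and 3638 (without fat body 2), the width between 705.5 and 874.5 bp, and the count with 1 peak of each list between 1192 and 2747. A region then needs only 3 lists. Added after the lists were seen, leaving out brain 1 gave 2607 regions with common bases (930 with all lists). It gave 737 with all summits within 100 bp (374) and 999 with all summits in 1 group (532). The median density over sequences was 6.44 per Mb (6.25 pooled), and the median gap was 103 kb. The median percentile was then 61.6 in fat body 1 (97.8 with all lists), 63.8 in fat body 2 and 62.5 in brain 2. These medians are over a larger set of regions, and percentiles without any other library were not computed. The same-tissue minus different-tissue summit distance of -7.00 bp moved between -23.5 and 17.8 bp: it turned to 17.8 bp without fat body 1 and 4.25 bp without fat body 2, and the cause was not tested. With the number taken as a replicate block, so that different-tissue pairs of the same number drop out, it was -19.0 bp. There was no fitted model to pair otherwise. A list shows no reads where no peak was called, and what depth limits could not be tested without reads.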
